A study of Mus musculus with 20 samples.

Results

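The nuclear genes for the subunits of the mitochondrial respiratory chain and ATP synthase were followed in whole mouse lung. Members were the genes whose symbol begins with Ndufa, Ndufb, Ndufc, Ndufs, Ndufv, Uqcr, Cox4 to Cox8 or Atp5, without symbols ending in -ps, and with at least 10 counts summed over the 20 libraries. Of 24054 genes in the count table, 88 symbols matched and 86 were kept: 45 of complex I (7 of them Ndufaf assembly factors), 8 of complex III, 16 of complex IV and 17 of complex V. All 86 passed the filter on low counts; Cox7b2 and Cox8c, 2 testis-type isoforms, did not reach 10 counts. The mitochondrially encoded subunits were not analysed here.

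RNA was sequenced from lungs of female C57Bl6 mice in 4 groups of 5 libraries. The genotype was Wild Type or ALOX15 KO, and the treatment was Saline or House Dust Mite (HDM), an allergen extract given through the nose every day for 14 days. The series compared the lung response to HDM with and without Alox15, the gene of a lipoxygenase that oxygenates polyunsaturated fatty acids. The age of the mice and the make of the knockout allele are not given in the sources used here. Libraries are named below by genotype label, treatment and replicate; the figures write WT_saline, WT_HDM, KO_saline and KO_HDM.

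Complexes I, III and IV pass electrons from NADH to oxygen and pump protons out of the mitochondrial matrix, and complex V, the ATP synthase, uses the returning protons to make ATP. The members encode catalytic subunits, small accessory subunits and, for complex I, proteins that help it assemble. Several subunits exist in tissue-restricted forms: Cox4i2 and Ndufa4l2 are abundant in lung and vascular mural cells, while Cox6a2, Cox7a1 and Cox8b are the forms of muscle and brown fat. The assignment follows the symbols, and 4 need a remark. Ndufa4 is now placed in complex IV, Cox7a2l helps to join complexes III and IV, and Atp5s and Atp5sl are no longer counted as ATP synthase subunits.

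Library totals were 12573113 to 23305673 expected counts, of which the 86 genes took 0.363% to 0.822%. Alox15 stood at 0.825 to 11.1 CPM (counts scaled to each library's effective size) in wild type saline and 7.92 to 29.8 CPM in wild type HDM, but at 38.4 to 44.7 CPM in knockout-labelled saline and 35.0 to 45.5 CPM in knockout-labelled HDM. The targeted gene was thus higher in the libraries labelled knockout, without overlap, under saline and under HDM (exact two-sided permutation test, p = 0.00794 in both, the smallest that 252 regroupings allow; n = 5 per group). By edgeR's test over all genes the difference was called under saline (log2 fold change 3.15 ± 0.45, adjusted p = 0.000583) and not under HDM (1.15 ± 0.41, adjusted p = 0.107). Any direction drawn from these labels carries that limit. In 5 libraries the fat-cell hormone gene Adipoq reached 85.1 to 169 CPM, against 0.195 to 27.7 CPM in the other 15: wild type saline 2 and 4, wild type HDM 2 and 4, and knockout-labelled HDM 5. The same 5 held 56.9 to 189 CPM of Ucp1, the brown-fat uncoupling protein, against 0 to 9.30 CPM elsewhere. None was a knockout-labelled saline library. Results are therefore given with all 20 libraries and without these 5.

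The 5 adipose-rich libraries stood above the rest in the respiratory chain as a whole. The summed level of the 86 genes was 6608 to 7949 CPM in them and 3599 to 5042 CPM in the other 15 libraries. The median of the 5 exceeded the median of the 15 for 82 of 86 genes, and the ratio of these medians had a median of 1.63 over the genes. All 5 lay above all 15 for 55 of 86 genes: 8 of 8 in complex III, 11 of 16 in complex IV, 9 of 17 in complex V and 27 of 45 in complex I. The same counts were not made over all genes tested, so they do not set the members apart from other genes. Complex III summed to 737 to 883 CPM in the 5 and to 368 to 520 CPM in the 15. The exceptions included Ndufa4l2, Cox4i2 and Cox6b2, whose ratios were 0.618, 0.587 and 0.672, and Ndufaf7, at 0.990. Heart and skeletal muscle transcripts were also uneven: Myh6, the atrial myosin heavy chain, spanned 53.7 to 2409 CPM in the 5 and 0.352 to 449 CPM in the 15. The skeletal muscle creatine kinase Ckm reached 414 CPM in wild type HDM 2.

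**Figure D1:**
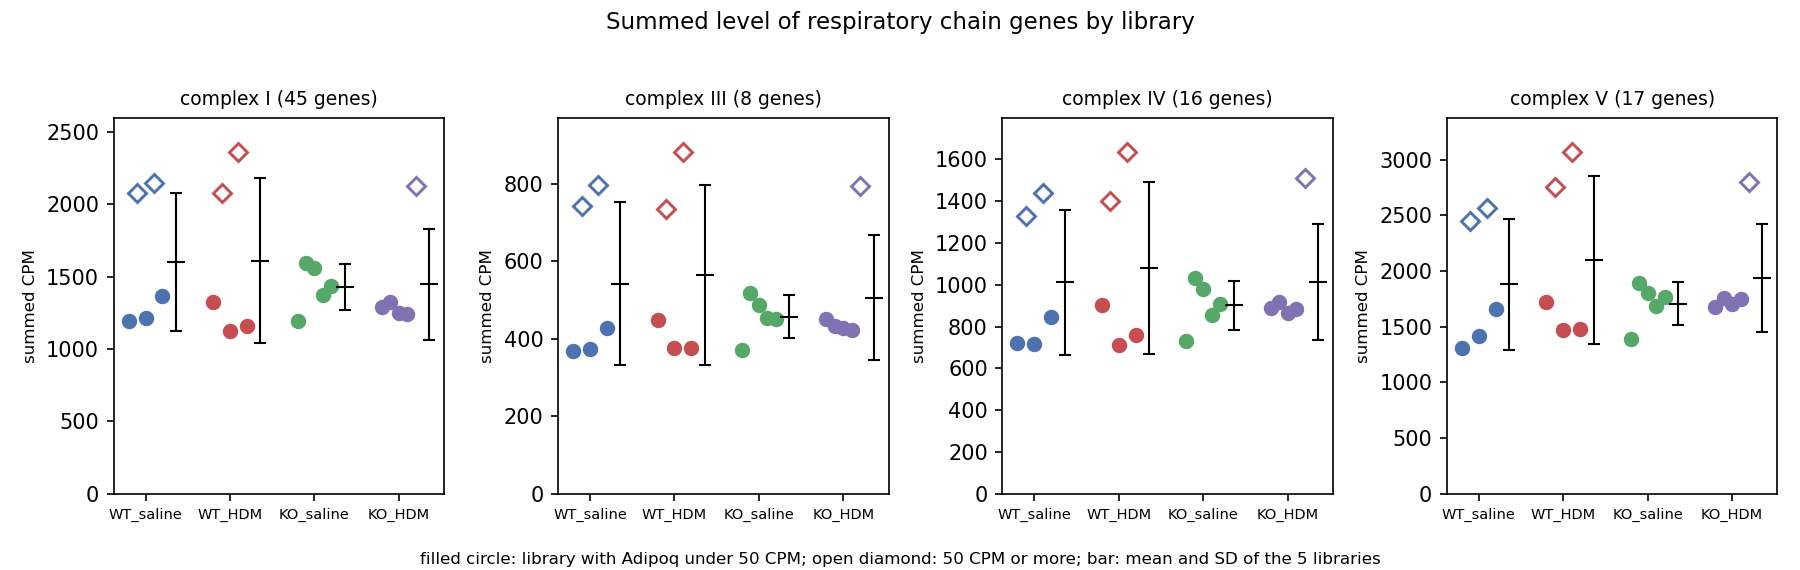
Summed CPM of the genes of each complex (linear axis from 0) for each library, by group, with the mean and SD of the 5 libraries. Open diamonds mark the 5 libraries with Adipoq of 50 CPM or more, which lie above all other libraries in every panel; for complex III they span 737 to 883 CPM against 368 to 520 CPM.

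Across the 4 groups the summed levels of each complex overlapped. Complex I summed to 1602 ± 474 CPM (SD, n = 5) in wild type saline, 1611 ± 572 in wild type HDM, 1431 ± 161 in knockout-labelled saline and 1448 ± 381 in knockout-labelled HDM. Complex III summed to 542 ± 210, 564 ± 232, 457 ± 55.2 and 506 ± 162 CPM in the same order. Complex IV summed to 1012 ± 347, 1082 ± 412, 901 ± 119 and 1014 ± 279 CPM, and complex V to 1880 ± 586, 2097 ± 757, 1708 ± 192 and 1938 ± 485 CPM. For each complex the group means differed by less than the SD within wild type saline, and the SD was smallest in knockout-labelled saline, the group without an adipose-rich library.

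Levels of different genes are compared per kilobase (kb) of the longest principal transcript. The highest mean level over the 20 libraries was that of Atp5b, the catalytic beta subunit of ATP synthase, at 266 CPM per kb, in complex V. Cox4i1, the common form of complex IV subunit 4, followed at 224 CPM per kb, and Uqcrh, the hinge protein of complex III, stood at 175 CPM per kb. In the complex I set the highest gene was Ndufa4, at 98.8 CPM per kb, which is there by its symbol only. Ndufb8 followed at 77.2 CPM per kb. The lowest of all 86 was the assembly factor Ndufaf6, in the same set, at 2.18 CPM per kb. The lowest genes of the other complexes were Uqcrq in complex III at 23.7 CPM per kb, Cox6b2, the testis-type form of Cox6b, in complex IV at 5.88 CPM per kb, and Atp5s in the complex V set at 3.21 CPM per kb.

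With all 20 libraries few of the 86 genes were called with HDM, in both genotype labels. A gene is called here when edgeR's quasi-likelihood test gave an adjusted p under 0.05 over all 16193 genes tested. In wild type mice 6 of 86 members were called (6.98%), 2 higher and 4 lower, while 30.1% of all genes tested were called (13.6% higher and 16.5% lower). In knockout-labelled mice 14 of 86 were called (16.3%), 8 higher and 6 lower, while 51.9% of all genes were called (26.2% higher and 25.7% lower). The median log2 fold change of the members was 0.05 in wild type and 0.06 in knockout-labelled mice, and that of all genes was -0.02 and 0.02. By complex, the wild type medians were -0.02 for complex I, 0.04 for III, 0.05 for IV and 0.22 for V. Leaving out wild type saline 3 reduced the wild type count to 3. The groups did not overlap for 1 of 86 members in wild type, against 11.6% of all genes, and for 13 of 86 in knockout-labelled mice, against 43.9%. The members were measured with a larger error than most genes: the median standard error of a member's log2 fold change was 0.23, and 0.14 over all genes. No member's response differed between the labels by the interaction term (0 of 86 called, 1.24% of all genes; 0 at an unadjusted p under 0.05; 0 by DESeq2 and by limma voom). In whole lung, fewer cells of a type and less RNA per cell cannot be told apart.

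Without the 5 adipose-rich libraries more members were called. In wild type (3 against 3 libraries) 9 of 86 were called, 5 higher and 4 lower, with 21.4% of all genes called. In knockout-labelled mice (5 saline against 4 HDM libraries) 33 of 86 were called, 8 higher and 25 lower, with 54.8% of all genes called. Of all genes in that fit 26.7% were called higher and 28.1% lower, so the members' share of lower calls was near that of all genes and their share of higher calls was smaller. Of the 25 lower members, 16 belonged to complex I, whose median log2 fold change moved from 0.02 to -0.22. They included core subunits such as Ndufs7 (-0.57), Ndufv1 (-0.41) and Ndufs8 (-0.26), which carry iron-sulfur clusters or the NADH site, and accessory subunits such as Ndufb11 (-0.43) and Ndufa11 (-0.37); these 5 genes were named after their values were seen. The median of complex V in that comparison moved from 0.11 to -0.01. In the same comparison 7 of 10 white adipose markers were called lower (median -2.44). So were 6 of 7 brown adipose markers (median -2.61), a list that holds Cox7a1 and Cox8b. Knockout-labelled saline 2 and 4, which stayed in, held 548 and 489 CPM of the white adipose list, against 117 to 175 CPM in the HDM libraries. The part of fat transcripts in the lower members was not tested.

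**Figure D2:**
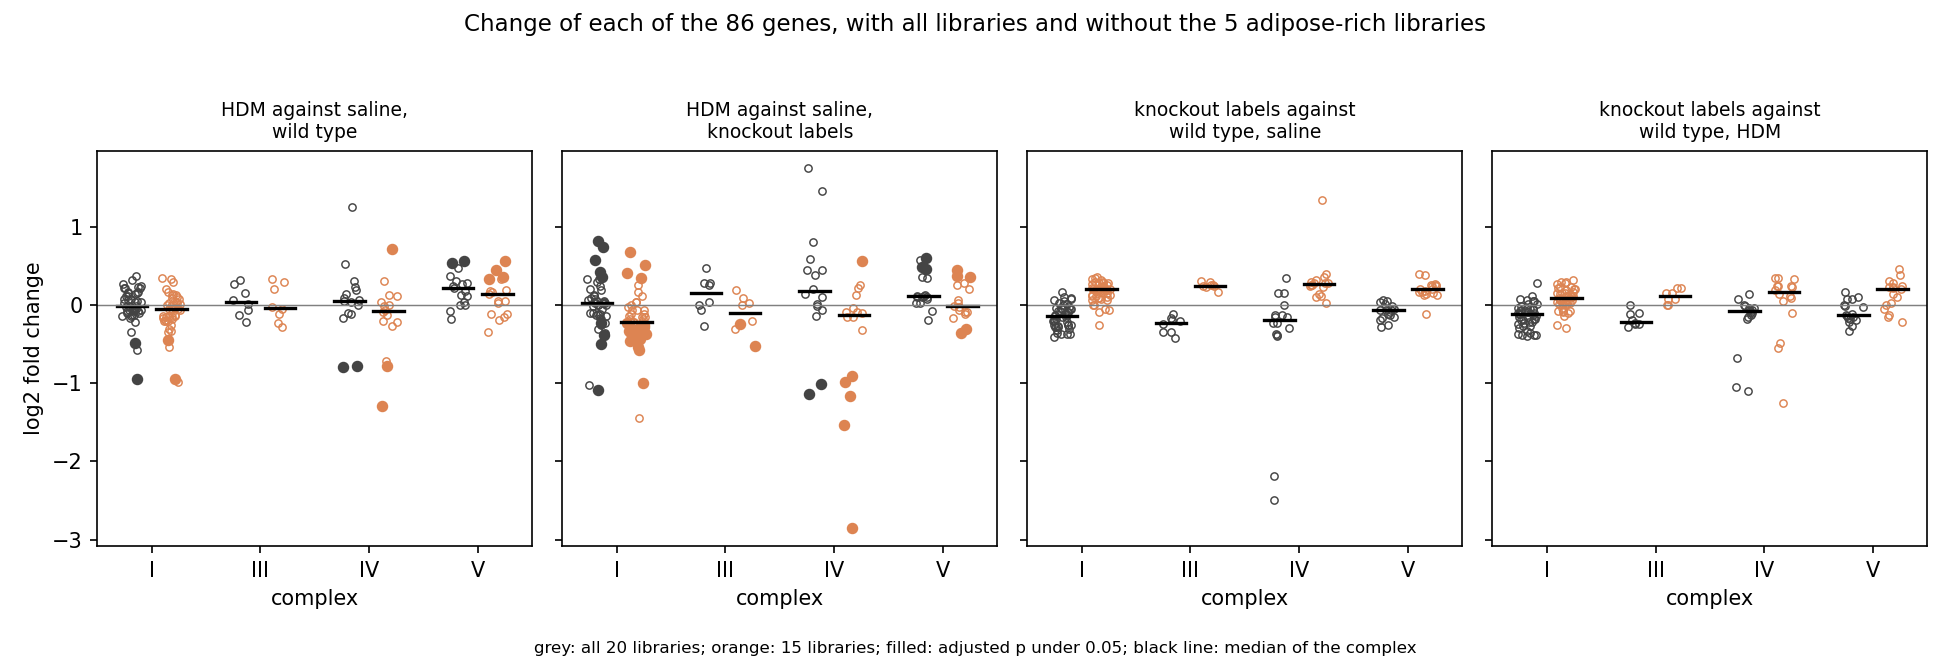
Log2 fold change of each of the 86 genes by complex, in the 2 HDM comparisons and the 2 genotype-label comparisons, with all 20 libraries (grey) and with the 15 that remain without the adipose-rich ones (orange). Filled points have an adjusted p under 0.05 and black lines are medians; in the HDM comparison of knockout-labelled mice the median of complex I is 0.02 with 20 libraries and -0.22 with 15, and in the saline comparison of the labels it is -0.14 and 0.20.

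The largest falls among the called members with HDM were those of Ndufa4l2, Cox4i2 and Cox6b2, which stand in for a common partner. Ndufa4l2, a relative of the subunit Ndufa4 that is induced by hypoxia and abundant in lung mural cells, fell in both labels. Its coding sequence is shown beside those of Ndufa4 and of AA467197, the mouse NMES1 gene, a second Ndufa4 relative that is induced in inflammation and is no member by symbol, because the 3 transcripts changed so differently. The sequences are the complete coding parts of GENCODE M21 transcripts, from ATG to stop, on chromosomes 6 (Ndufa4), 10 (Ndufa4l2) and 2 (AA467197), and capitals mark bases identical to Ndufa4 in a global alignment.
Ndufa4: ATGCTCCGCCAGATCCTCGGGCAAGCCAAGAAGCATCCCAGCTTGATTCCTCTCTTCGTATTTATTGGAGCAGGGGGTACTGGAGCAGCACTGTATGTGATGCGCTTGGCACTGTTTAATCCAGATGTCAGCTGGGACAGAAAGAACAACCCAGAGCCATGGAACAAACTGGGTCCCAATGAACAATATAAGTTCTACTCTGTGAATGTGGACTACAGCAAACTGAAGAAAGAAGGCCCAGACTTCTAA
Ndufa4l2: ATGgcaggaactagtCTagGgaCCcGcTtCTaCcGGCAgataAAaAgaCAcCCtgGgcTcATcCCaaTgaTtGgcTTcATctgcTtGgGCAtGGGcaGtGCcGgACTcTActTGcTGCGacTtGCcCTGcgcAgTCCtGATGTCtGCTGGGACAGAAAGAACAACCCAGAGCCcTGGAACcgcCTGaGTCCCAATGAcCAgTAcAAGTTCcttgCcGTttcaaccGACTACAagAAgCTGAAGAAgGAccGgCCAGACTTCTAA
AA467197: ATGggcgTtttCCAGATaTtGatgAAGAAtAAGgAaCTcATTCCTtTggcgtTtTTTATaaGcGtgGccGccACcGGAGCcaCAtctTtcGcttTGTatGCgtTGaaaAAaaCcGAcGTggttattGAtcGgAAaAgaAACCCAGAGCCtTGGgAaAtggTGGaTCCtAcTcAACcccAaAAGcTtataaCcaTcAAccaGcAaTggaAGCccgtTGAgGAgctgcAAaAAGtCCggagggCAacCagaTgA
Ndufa4l2 shares 168 of 245 aligned bases with Ndufa4 (68.6%) and AA467197 130 of 237 (54.9%). The longest run that a transcript of Ndufa4 shares with one of Ndufa4l2 is 28 bases, and with one of AA467197 11 bases, so few reads can match 2 of the 3 genes.

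Ndufa4l2 was at 11, 13.2, 16.4, 10.2 and 16.6 CPM in wild type saline and at 7.60, 6.78, 5.67, 5.43 and 9.51 CPM in wild type HDM. It was at 14.9, 16.2, 13.2, 13.9 and 12.3 CPM in knockout-labelled saline and at 5.44, 7.16, 8.37, 7.39 and 4.69 CPM in knockout-labelled HDM. Every HDM library lay below every saline library of its label, adipose-rich or not. It fell by 0.94 ± 0.18 (SE) on the log2 scale in wild type (edgeR adjusted p = 0.000758) and by 1.09 ± 0.18 in knockout-labelled mice (adjusted p = 5.91e-05). Ndufa4 itself was at 40.0 to 103 CPM in wild type HDM and 44.6 to 92.6 CPM in wild type saline, and its log2 fold change was -0.03 ± 0.29 (adjusted p = 0.949). As a share of Ndufa4's counts, Ndufa4l2 was 23.4% ± 11 (SD, n = 5) in wild type saline and 13.1% ± 7.02 in wild type HDM, and 26.0% ± 4.82 and 13.5% ± 5.82 in knockout-labelled mice.

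AA467197 moved the other way and far more. It was at 1.59, 1.24, 0.744, 0.966 and 1.08 CPM in wild type saline and at 59.3, 55.3, 50.4, 34.3 and 16.4 CPM in wild type HDM. In knockout-labelled mice it was at 1.53, 1.6, 1.98, 1.43 and 2.60 CPM under saline and at 41.0, 42.5, 42.2, 64.1 and 40.5 CPM under HDM. The lowest HDM library was above the highest saline library in both labels. The rise was 5.27 ± 0.33 on the log2 scale, 38.5-fold, in wild type (edgeR adjusted p = 5.86e-09) and 4.65 ± 0.31, 25.1-fold, in knockout-labelled mice (adjusted p = 5.62e-09). Its counts were 1.08% to 3.23% of those of Ndufa4 in wild type saline and 33.3% to 126% in wild type HDM, so that it passed Ndufa4's counts in some HDM libraries.

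Cox4i2, the lung form of complex IV subunit 4, followed Ndufa4l2. It was at 21.7, 22.9, 29.3, 20.02 and 32.7 CPM in wild type saline and at 15.9, 13, 10.6, 12 and 22.1 CPM in wild type HDM. It was at 28.2, 31.1, 28.0, 24.0 and 30.2 CPM in knockout-labelled saline and at 14.2, 15.8, 17.1, 13.9 and 9.38 CPM in knockout-labelled HDM. Only wild type HDM 5 reached into the saline range. Cox4i2 fell by 0.78 ± 0.19 on the log2 scale in wild type (edgeR adjusted p = 0.0042) and by 1.01 ± 0.19 in knockout-labelled mice (adjusted p = 0.000193). Its common partner Cox4i1 had a log2 fold change of 0.14 ± 0.24 and 0.15 ± 0.24 (adjusted p = 0.689 and 0.629). The ratio of Cox4i2 to Cox4i1 counts was 16.6% ± 6.79 (SD, n = 5) in wild type saline and 8.85% ± 4.83 in wild type HDM, and 18.4% ± 3.04 and 8.70% ± 2.86 in knockout-labelled mice.

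Cox6b2 was low but fell as well. It was at 4.51, 2.90, 4.94, 2.81 and 4.90 CPM in wild type saline and at 2.04, 3.58, 1.32, 2.17 and 2.43 CPM in wild type HDM. It was at 4.55, 5.78, 5.85, 4.17 and 5.24 CPM in knockout-labelled saline and at 1.71, 2.78, 2.97, 1.76 and 2.37 CPM in knockout-labelled HDM. Within wild type the 2 adipose-rich saline libraries were the lowest of their group and overlapped with HDM. The log2 fold change was -0.79 ± 0.24 in wild type (edgeR adjusted p = 0.0172) and -1.14 ± 0.24 in knockout-labelled mice (adjusted p = 0.000505), and without the adipose-rich libraries it was -1.29 and -1.16. The wild type call was lost without wild type saline 3 or 5 or wild type HDM 1 or 3, with adjusted p up to 0.0634 and log2 fold changes from -0.96 to -0.61.

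Markers of several lung cell types fell with HDM alongside these 3 subunits. Club cell markers were called lower for 8 of 9 in both labels, alveolar type 1 cell markers for 6 and 8 of 9, and ciliated cell markers for 4 and 6 of 10. Of all genes tested, 16.5% were called lower in wild type and 25.7% in knockout-labelled mice. Vessel cell markers are given in more detail, since Ndufa4l2 and Cox4i2 are known from mural cells. Of 10 endothelial markers, 9 were called lower with HDM in wild type and 10 in knockout-labelled mice, and their summed level was 4111 to 6298 CPM in wild type saline, 2539 to 4310 CPM in wild type HDM, 5605 to 5945 CPM in knockout-labelled saline and 1826 to 3450 CPM in knockout-labelled HDM. Of 13 pericyte and smooth muscle markers, 6 were called lower in wild type, and in knockout-labelled mice 2 were lower and 1 higher. Without the adipose-rich libraries 6 were lower and 1 higher in wild type, and 9 lower and 1 higher in knockout-labelled mice. In that fit 10.8% and 28.1% of all genes were called lower. With 20 libraries the summed level of the pericyte and smooth muscle list was 1305 to 3004 and 956 to 1249 CPM in wild type saline and HDM. It was 1074 to 1596 and 753 to 1402 CPM in knockout-labelled mice. The part of these cell types in the falls of Ndufa4l2, Cox4i2 and Cox6b2 was not tested. The summed levels of several marker lists were higher with HDM alongside AA467197. Alveolar macrophage markers summed to 661 to 951 CPM in wild type saline and 5478 to 12522 CPM in wild type HDM, and to 642 to 1118 and 4302 to 7598 CPM in knockout-labelled mice, with 5 of 12 called higher and 3 lower in both labels. Cell cycle genes were called higher for 14 and 16 of 16, with 13.6% of all genes called higher in wild type and 26.2% in knockout-labelled mice. Monocyte and interstitial macrophage markers were called higher for 7 of 11 in wild type and 11 of 11 in knockout-labelled mice. Their summed level was 536 to 996 and 831 to 1186 CPM in wild type saline and HDM, and 558 to 748 and 1350 to 2278 CPM in knockout-labelled saline and HDM. The part of these cells in the rise of AA467197 was not tested.

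**Figure D3:**
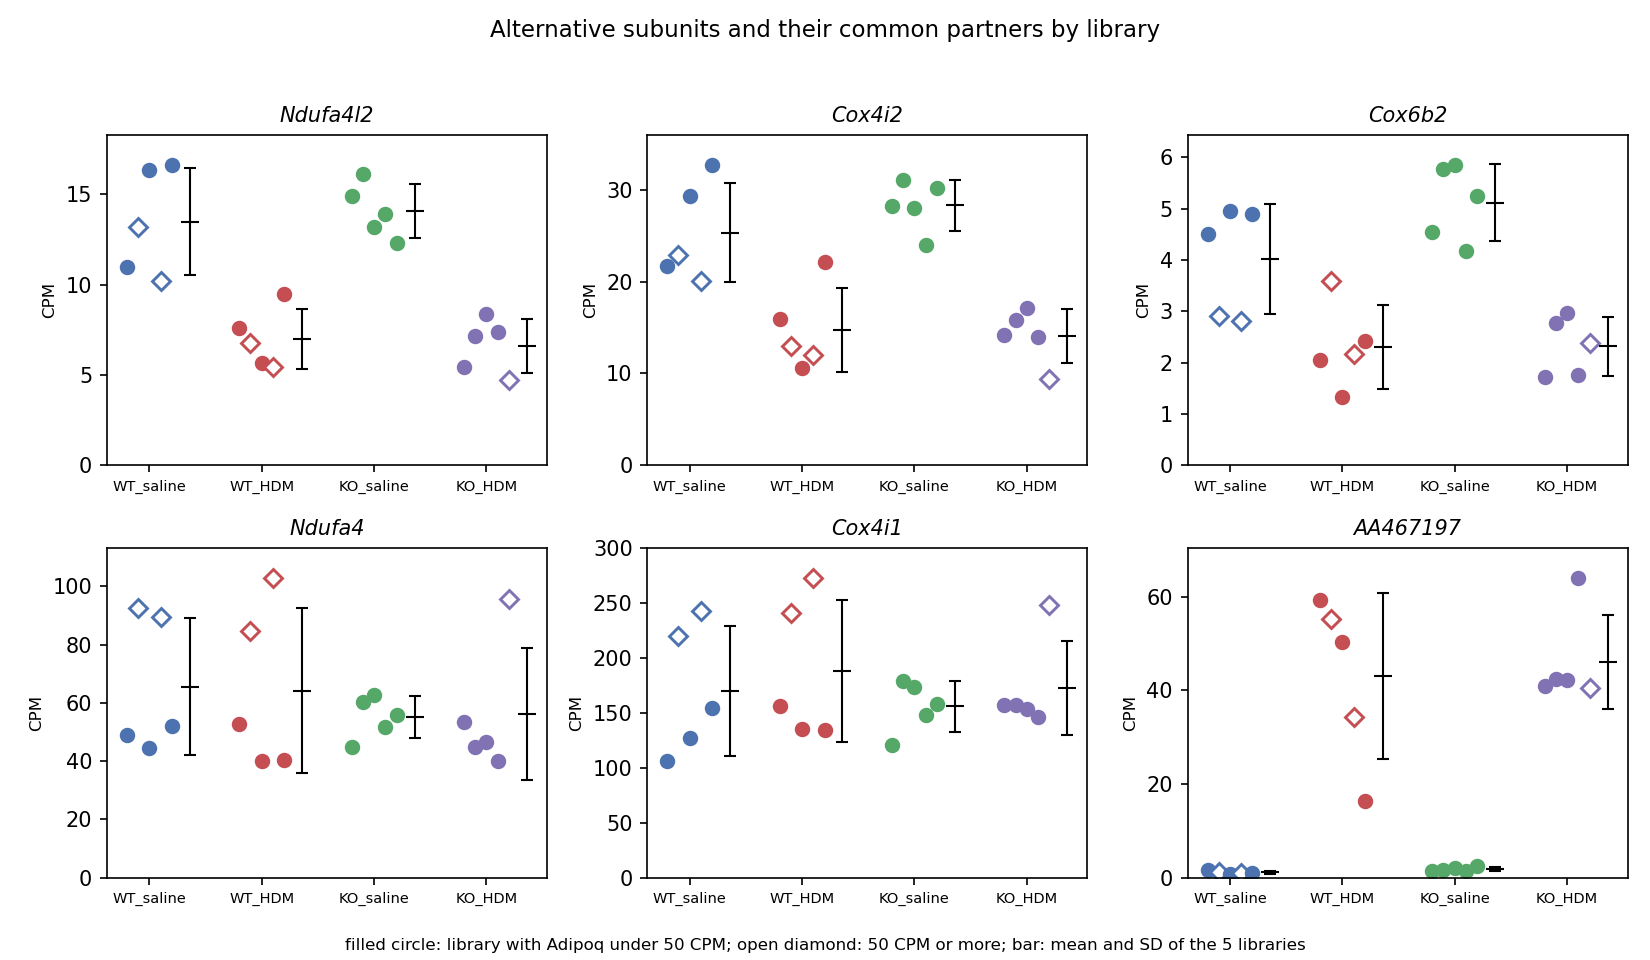
CPM in each library, by group, of Ndufa4l2, Cox4i2, Cox6b2, their partners Ndufa4 and Cox4i1, and AA467197 (linear axes from 0), with the mean and SD of 5 libraries; open diamonds are the adipose-rich libraries. The HDM libraries lie low for the first 3 genes and high for AA467197 (16.4 to 64.1 CPM against 0.744 to 2.60 CPM under saline), while Ndufa4 and Cox4i1 are high in the diamonds.

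The muscle and brown-fat forms of complex IV subunits were high in the adipose-rich libraries of every group that held them. Cox8b was at 45.8, 49.7, 39.2, 61.1 and 46.9 CPM in wild type saline 2 and 4, wild type HDM 2 and 4, and knockout-labelled HDM 5, and at 0.292 to 7.89 CPM in the other 15 libraries. Cox7a1 was at 23.4 to 43.9 CPM in the 5 and at 0.535 to 4.79 CPM in the 15. Cox6a2 was at 7.45 to 42.4 CPM in the 5 and 2.49 to 9.85 CPM in the 15, with overlap. None of the 3 was called for HDM in either label: with 20 libraries the log2 fold change of Cox8b in knockout-labelled mice was 1.46 ± 1.58 (edgeR adjusted p = 0.458). Without the 5 libraries the direction turned in that comparison, and all 3 were called lower: Cox8b at -2.85 (adjusted p = 0.00165), Cox7a1 at -1.53 (adjusted p = 0.0105) and Cox6a2 at -0.98 (adjusted p = 0.0139). In those 9 libraries Ucp1 was at 0.0440 to 9.30 CPM under saline and at 0 to 0.427 CPM under HDM, and Adipoq at 0.308 to 27.7 CPM and 0.195 to 7.42 CPM. The part of these transcripts in the turned result was not tested. The partners Cox8a, Cox7a2 and Cox6a1, found in all tissues, had log2 fold changes between -0.16 and 0.02 in the HDM comparisons with 20 libraries, and none was called.

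**Figure D4:**
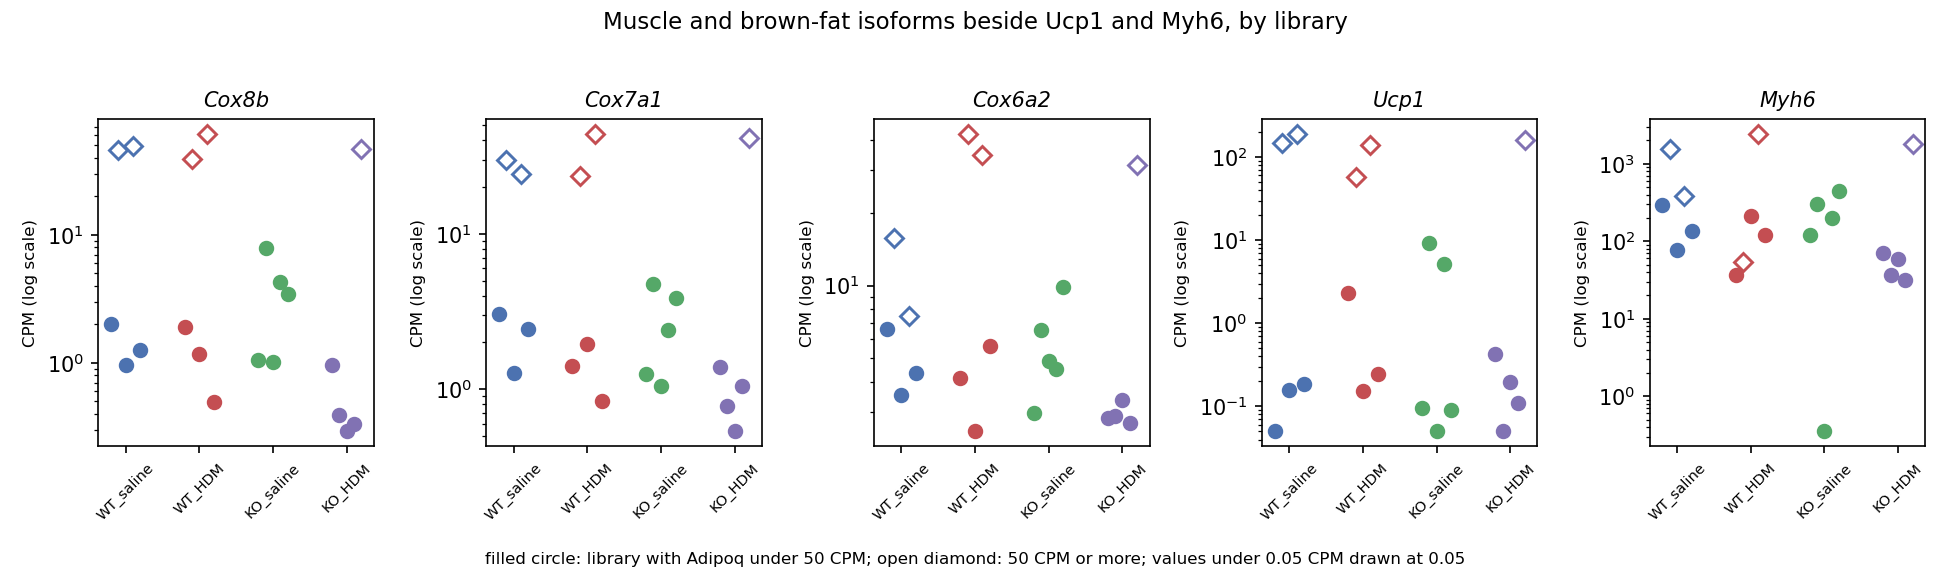
CPM in each library on a log axis for Cox8b, Cox7a1, Cox6a2, Ucp1 and Myh6, by group; open diamonds are the 5 libraries with Adipoq of 50 CPM or more, and values under 0.05 CPM are drawn at 0.05. Cox8b is at 39.2 to 61.1 CPM in the diamonds and at most 7.89 CPM elsewhere, and Ucp1 is at 56.9 to 189 CPM in the diamonds and at most 9.30 CPM elsewhere.

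Cox5a, a common complex IV subunit with no tissue form, was not called with 20 libraries, at 0.52 ± 0.34 in wild type and 0.81 ± 0.34 in knockout-labelled mice (edgeR adjusted p = 0.266 and 0.0578). It was at 30.3, 44.2, 42.6, 40.3 and 47.5 CPM in knockout-labelled saline and at 63.2, 57.6, 59.8, 64.9 and 113 CPM in knockout-labelled HDM, without overlap. Without the adipose-rich libraries it was called higher in both labels (0.71 and 0.57, adjusted p = 0.0051 and 0.00151), the largest rise among the members called in wild type in that fit.

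Complex III had no called member with HDM in either label (0 of 8; 0 at an unadjusted p under 0.05). Its log2 fold changes ran from -0.21 to 0.32 in wild type and from -0.27 to 0.47 in knockout-labelled mice, with a median standard error of 0.29. The highest was that of Uqcrfs1, the Rieske iron-sulfur protein that hands electrons to cytochrome c1, at 0.32 ± 0.32 and 0.47 ± 0.32 (edgeR adjusted p = 0.489 and 0.229). The lowest was that of the small subunit gene Uqcr10, at -0.21 ± 0.30 and -0.27 ± 0.30 (adjusted p = 0.636 and 0.468). Without the adipose-rich libraries, 2 of the 8 were called lower in knockout-labelled mice: Uqcr10 at -0.52 (adjusted p = 0.00469) and Uqcrc2, a core protein, at -0.25 (adjusted p = 0.041), the latter from 0.01 with 20 libraries.

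In complex V all calls with 20 libraries were upward: Atp5g3 and Atp5e in wild type, and Atp5g3, Atp5f1 and Atp5l in knockout-labelled mice. Without the adipose-rich libraries Atp5d and Atp5o, subunits of the central and outer stalks, were called lower in knockout-labelled mice (-0.35 and -0.30, edgeR adjusted p = 0.031 and 0.0315). Atp5g3 is 1 of 3 genes for the c subunit, whose ring turns in the membrane and whose mature protein is the same from all 3. Atp5g3 was at 55, 80.3, 55.7, 76.9 and 65.6 CPM in wild type saline and at 81.8, 138, 76.6, 120 and 69.3 CPM in wild type HDM. It was at 51.6, 65.1, 68.2, 66.7 and 68.7 CPM in knockout-labelled saline and at 89.4, 87.8, 90.5, 87.3 and 131 CPM in knockout-labelled HDM. The knockout-labelled groups did not overlap and the wild type groups did. Atp5g3 rose by 0.54 ± 0.18 on the log2 scale in wild type (edgeR adjusted p = 0.0258) and by 0.60 ± 0.18 in knockout-labelled mice (adjusted p = 0.00748); without the adipose-rich libraries the rises were 0.36 and 0.45 (adjusted p = 0.0272 and 0.000448). The wild type call was lost without wild type saline 1 or 3 or wild type HDM 2 or 4, with adjusted p up to 0.0884 and rises from 0.41 to 0.68.

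The other c-subunit genes were not called. Atp5g1 had log2 fold changes of 0.30 ± 0.27 and 0.08 ± 0.27, and Atp5g2 -0.08 ± 0.13 and 0.02 ± 0.13. Atp5g3 thus took a larger share of the 3 genes' summed CPM under HDM: 45.1% ± 1.77 (SD, n = 5) in wild type saline and 53.4% ± 2.68 in wild type HDM, and 43.7% ± 1.72 and 53.1% ± 2.20 in knockout-labelled mice. The ranges were 43.2% to 47.3% and 51.1% to 57.7% in wild type, and 41.6% to 46.0% and 50.8% to 56.4% in knockout-labelled mice. The groups did not overlap in this share in either label. The difference in share was not tested.

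Atp5e, the epsilon subunit of the central stalk, was at 48.0, 70.7, 45, 83.4 and 60.9 CPM in wild type saline and at 85.3, 119, 90.1, 109 and 54.2 CPM in wild type HDM. The groups overlapped through wild type HDM 5. Atp5e rose by 0.57 ± 0.19 in wild type (edgeR adjusted p = 0.0315), with 0.37 ± 0.19 in knockout-labelled mice (adjusted p = 0.118); the interaction was -0.20 ± 0.27 (adjusted p = 0.771). The wild type call was lost without wild type saline 1, 3 or 5 or wild type HDM 2 or 4, with adjusted p up to 0.0956. Atp5f1, the b subunit of the outer stalk, was at 80.1, 100.1, 104, 97.3 and 102 CPM in knockout-labelled saline and at 126, 137, 121, 121 and 158 CPM in knockout-labelled HDM. Atp5f1 rose there by 0.45 ± 0.16 (adjusted p = 0.0235), a call lost without knockout-labelled HDM 1 or 5 (adjusted p up to 0.0653). Atp5l, the membrane subunit g, was at 56.4, 80.6, 78.4, 72.5 and 72.3 CPM in knockout-labelled saline and at 99.3, 87.6, 89.9, 96.5 and 133 CPM in knockout-labelled HDM. Neither Atp5f1 nor Atp5l overlapped between those groups. Atp5l rose by 0.49 ± 0.18 (adjusted p = 0.0313), and 6 single libraries, of which 3 were knockout-labelled HDM, ended that call when left out (adjusted p up to 0.1). In wild type, Atp5f1 and Atp5l had log2 fold changes of 0.37 ± 0.16 and 0.47 ± 0.18 (adjusted p = 0.0872 and 0.0569), and both were called without the adipose-rich libraries (0.34 and 0.45; adjusted p = 0.0468 and 0.0369). Atp5b, of the catalytic head, stood at 0.00 ± 0.31 in wild type and 0.11 ± 0.31 in knockout-labelled mice.

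Of the 4 called complex V genes, Atp5g3, Atp5f1 and Atp5l hold the E-box CACGTG in their promoters, and Atp5e does not. Atp5g1 and Atp5sl, which were not called, hold it too. So do 2 complex I genes that fell in knockout-labelled mice: Ndufa7, called lower, and Ndufv1, called lower only without the adipose-rich libraries. The promoters of Atp5g3, Atp5f1 and Atp5l are printed for their E-box. They are the 250 bases before the annotated start from RefSeq (GRCm38.p6), on the gene's strand, with every match to the motifs searched in capitals, on either strand: the GC-rich motif of NRF1, GABPA (CCGGAAG), YY1 (AAGATGGC), ERR (AAGGTCA) and the hypoxia-response core ACGTG, which lies inside CACGTG.
Atp5g3 (chr2:73911327-73911576, minus strand): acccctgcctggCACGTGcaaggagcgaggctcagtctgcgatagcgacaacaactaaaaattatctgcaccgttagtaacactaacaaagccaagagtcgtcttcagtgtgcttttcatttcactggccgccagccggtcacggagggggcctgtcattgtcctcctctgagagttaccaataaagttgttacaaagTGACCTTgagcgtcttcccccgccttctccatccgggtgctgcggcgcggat
Atp5f1 (chr3:105959264-105959513, minus strand): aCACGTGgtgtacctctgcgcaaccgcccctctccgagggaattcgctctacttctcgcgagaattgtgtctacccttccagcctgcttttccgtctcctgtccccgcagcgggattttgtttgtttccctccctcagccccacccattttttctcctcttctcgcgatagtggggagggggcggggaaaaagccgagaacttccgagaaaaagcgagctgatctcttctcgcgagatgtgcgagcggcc
Atp5l (chr9:44920743-44920992, minus strand): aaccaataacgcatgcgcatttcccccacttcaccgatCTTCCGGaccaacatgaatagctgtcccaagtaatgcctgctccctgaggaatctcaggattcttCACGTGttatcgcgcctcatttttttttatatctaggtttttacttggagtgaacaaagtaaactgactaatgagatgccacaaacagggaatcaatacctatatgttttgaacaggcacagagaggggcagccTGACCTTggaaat
Promoters of this length matched 72 of the 86 members. The E-box was in 5 of 16 complex V promoters (31.2%), in 7 of 72 member promoters (9.72%) and in 6.05% of all 27025 promoters. It was in 3 of 9 members called higher in any comparison and in 1 of 4 called lower. ACGTG was in 16 of 72 (22.2%) and in 16.6% of all. The NRF1 motif was in 11 of 72 (15.3%) and in 3.86% of all, the GABPA motif in 11 of 72 (15.3%) and 7.05%, the ERR motif in 5 of 72 (6.94%) and 4.05%, and the YY1 motif in 0 of 72 and 1.59%. A match describes the letters and not the binding of a factor.

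In complex I with 20 libraries, 1 of 7 assembly factors (14.3%) and 1 of 38 other members (2.63%) were called in wild type, with 30.1% of all genes called. In knockout-labelled mice 4 of 7 (57.1%) and 5 of 38 (13.2%) were called, with 51.9% of all genes called. The share of the few assembly factors was thus near or under that of all genes. Ndufaf4, an assembly factor of the early membrane-arm intermediates, is shown with its promoter, 1 of the 7 in complex I that hold the NRF1 motif (capitals, as above).
Ndufaf4 (chr4:24897833-24898082, plus strand): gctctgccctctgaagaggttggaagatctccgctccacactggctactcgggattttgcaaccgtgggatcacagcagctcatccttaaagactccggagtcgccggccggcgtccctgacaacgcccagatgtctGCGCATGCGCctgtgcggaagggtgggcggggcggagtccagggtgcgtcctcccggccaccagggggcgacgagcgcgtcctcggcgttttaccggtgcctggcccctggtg
Ndufaf4 was at 10.7, 7.80, 6.03, 9.69 and 8.07 CPM in knockout-labelled saline and at 14.0, 12.7, 14.8, 13.2 and 19.8 CPM in knockout-labelled HDM, without overlap. It rose there by 0.82 ± 0.19 on the log2 scale (edgeR adjusted p = 0.00131). In wild type it was at 14.6, 13, 9.25, 11 and 6.79 CPM under saline and at 11.2, 14.7, 14.5, 17 and 13.1 CPM under HDM, and its log2 fold change was 0.37 ± 0.19 (adjusted p = 0.146). The wild type groups overlapped, and the interaction was 0.45 ± 0.27 (adjusted p = 0.434).

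Ndufaf3, which works with Ndufaf4 in assembly, fell. It was at 8.63, 11.2, 11.4, 11.4 and 11.4 CPM in wild type saline and at 7.48, 8.83, 5.44, 8.02 and 8.71 CPM in wild type HDM. It was at 8.86, 11.9, 12.8, 9.22 and 9.44 CPM in knockout-labelled saline and at 7.36, 6.77, 7.44, 7.66 and 7.71 CPM in knockout-labelled HDM. Only wild type saline 1 reached the HDM range of its label. Ndufaf3 fell by 0.49 ± 0.13 (edgeR adjusted p = 0.00941) and by 0.50 ± 0.13 (adjusted p = 0.00367); without the adipose-rich libraries the wild type value was -0.54 with adjusted p = 0.0509.

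Ndufb6, an accessory subunit of the membrane arm, was at 11.9, 14.6, 13.9, 13.4 and 13.9 CPM in knockout-labelled saline and at 18.2, 18.5, 20.7, 20.9 and 34.9 CPM in knockout-labelled HDM. It rose there by 0.74 ± 0.25 (edgeR adjusted p = 0.0172), without overlap, and by 0.52 without the adipose-rich libraries (adjusted p = 0.000526). With knockout-labelled HDM 5 alone left out, the call was lost (0.53, adjusted p = 0.0689). Ndufa1 and Ndufc2, accessory subunits of the membrane arm, also rose in knockout-labelled mice, by 0.57 ± 0.23 (adjusted p = 0.0396) and 0.42 ± 0.14 (adjusted p = 0.0166), both without overlap. The assembly factor Ndufaf2 rose by 0.35 ± 0.14 (adjusted p = 0.0404), and Ndufa7 and the methyltransferase Ndufaf7 fell by 0.38 ± 0.14 and 0.22 ± 0.07 (adjusted p = 0.0294 and 0.017). The calls of Ndufa1, Ndufaf2, Ndufa7 and Ndufaf7 were each lost when any of 6 to 11 single libraries was left out, with adjusted p up to 0.123, 0.164, 0.147 and 0.13. In wild type none of these 6 genes was called. Ndufs5 could not be judged, as it was at 0 CPM in wild type HDM 3 and knockout-labelled HDM 4 and at 8.12 to 41.5 CPM elsewhere, with fractional expected counts.

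**Figure D5:**
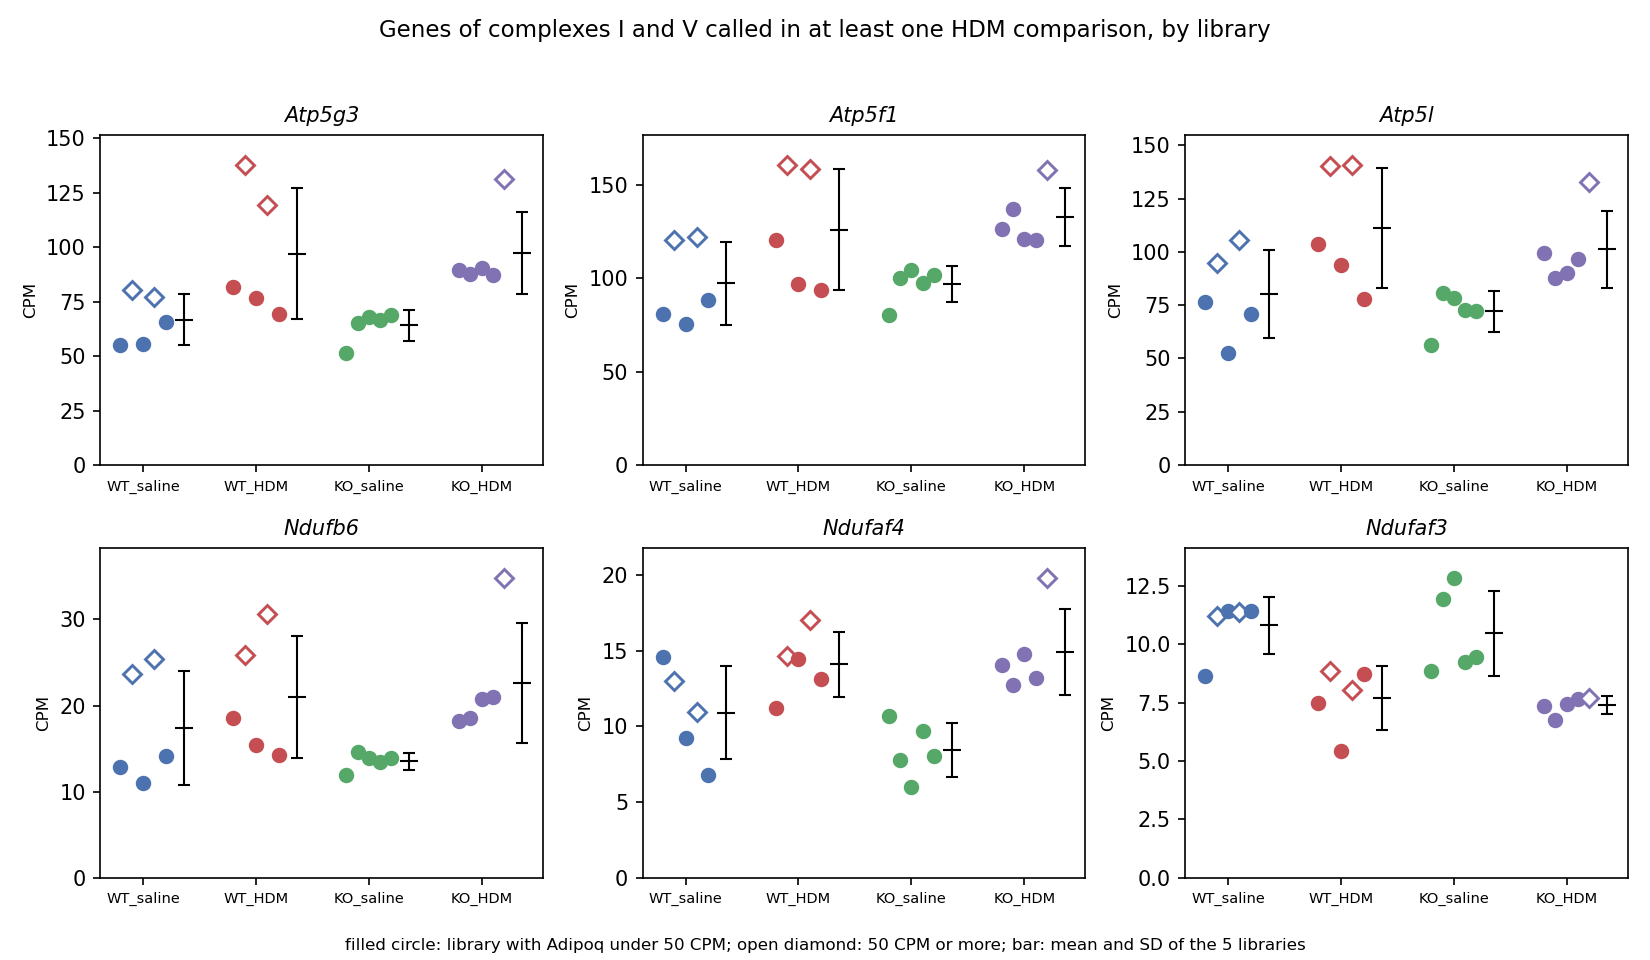
CPM in each library, by group, of 3 complex V genes (Atp5g3, Atp5f1, Atp5l), the complex I subunit gene Ndufb6 and the assembly factors Ndufaf4 and Ndufaf3 (linear axes from 0), with the mean and SD of 5 libraries; open diamonds are the adipose-rich libraries. In knockout-labelled mice all 5 HDM libraries lie above all saline libraries for the first 5 genes and below them for Ndufaf3.

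No member was called for the genotype label in either treatment. Under saline 0 of 86 were called, with 0.908% of all genes called, and under HDM 0 of 86, with 6.67% of all genes called. At an unadjusted p under 0.05 the counts were 0 and 1, and DESeq2 and limma voom called 0 in both. The direction of the medians turned when the adipose-rich libraries were left out, of which wild type saline held 2 and knockout-labelled saline none. With 20 libraries the log2 fold change of knockout-labelled against wild type saline was below 0 for 70 of 86 members, with a median of -0.15. Over all genes tested it was below 0 for 8933 of 16193, with a median of -0.03. With 15 libraries the members' log2 fold change was above 0 for 81 of 86, with a median of 0.21: 41 of 45 in complex I, 8 of 8 in III, 16 of 16 in IV and 16 of 17 in V. None was called there either (0.723% of all genes called, with a median of 0.01 over all genes). In that fit the white and brown adipose marker lists had medians of 2.42 and 1.34, with no marker called. Knockout-labelled saline 2 and 4 held 548 and 489 CPM of the white adipose list. The remaining wild type saline libraries held 151 to 210 CPM. The fat content was thus still uneven with 15 libraries, and its part in the turned direction was not tested. Under HDM, 69 of 86 members and 8514 of 16193 genes tested were below 0 with 20 libraries. With 15 libraries 68 of 86 members were above 0, and 7.34% of all genes were called. There the white and brown adipose lists had medians of -0.72 and -1.25 with 15 libraries. All but 2 members lay within 0.5 of 0 under saline; the exceptions, Cox8b and Cox7a1, were at -2.50 ± 1.6 and -2.19 ± 1.36. Red blood cell markers moved with the label, with 10 of 10 tested markers higher in knockout-labelled saline (10060 to 20604 CPM summed, against 2773 to 6446 CPM in wild type saline); their part was not tested.

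The rest of the mitochondrial programme was counted from lists that are not made of members. With 20 libraries HDM gave calls for 13.6% of all genes higher and 16.5% lower in wild type. The shares in knockout-labelled mice were 26.2% and 25.7%. Among the 14 regulators of mitochondrial biogenesis, none was called with HDM in wild type, and in knockout-labelled mice 7 were higher and 2 lower. The largest rise was that of Ppargc1b, a coactivator of respiratory genes, at 1.52 (edgeR adjusted p = 0.00238), followed by Myc at 0.64 (adjusted p = 0.049); Polrmt, the mitochondrial RNA polymerase, fell by 0.36 (adjusted p = 0.00712). Without the adipose-rich libraries Ppargc1b was higher in both labels (1.30 in wild type and 1.15 in knockout-labelled mice). Of 24 tested assembly factors of complexes III and IV, 1 was higher and 1 lower in wild type, and 5 were higher and 1 lower in knockout-labelled mice. Surf1, which acts early in complex IV assembly, fell in both (-0.38 and -0.49), and Cox20 rose in both (0.63 and 0.67). Of the 4 complex II subunits only Sdhd rose, by 0.71, in knockout-labelled mice, and of 15 electron carriers and their enzymes Cycs, cytochrome c, rose there by 1.11 and Coq4 fell by 0.42. Without the adipose-rich libraries 1 of these 15 was higher and 8 were lower in knockout-labelled mice, with a median log2 fold change of -0.27. Of all genes 28.1% were lower there, and in wild type 1 of the 15 was higher and 1 lower.

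Around the chain, 20 translocases and carriers gave 2 higher calls in wild type and 5 in knockout-labelled mice, led by Timm8a1 (0.78 and 1.13) and Hspe1 (0.57 and 0.86). Of 21 glycolysis genes 2 were higher and 1 lower in wild type, and 6 higher and 1 lower in knockout-labelled mice. The shares over all genes were 13.6% higher and 16.5% lower in wild type, and 26.2% and 25.7% in knockout-labelled mice. Hk3, the hexokinase of myeloid cells, rose by 1.99 and 2.07, and Ldhb, a lactate dehydrogenase subunit, fell by 0.60 and 0.99. The 19 genes of the tricarboxylic acid cycle gave 0 calls in wild type and 1, Dld, in knockout-labelled mice (0.71), and the 17 of fatty acid oxidation gave 0 and 1, Eci2, which fell by 0.34. Without the adipose-rich libraries 9 of 19 tricarboxylic acid cycle genes and 12 of 17 fatty acid oxidation genes were lower in knockout-labelled mice, with 28.1% of all genes lower. In wild type 1 and 4 were lower, with 10.8% of all genes lower. White and brown adipose markers were also lower in that fit of knockout-labelled mice (7 of 10 and 6 of 7), and their part was not tested. In the list on oxygen sensing, Hif1a rose by 0.44 and 0.85 and Epas1, its endothelial relative, fell by 0.67 and 1.11.

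Among the other mitochondrial lists, Lyrm7 and Atpif1 were called for the genotype label under both treatments. Under HDM, 5 further genes were higher in knockout-labelled mice: Aldoc by 0.71, Hif1a by 0.51, Ucp2 by 0.45, Yy1 by 0.25 and Tomm20 by 0.23 on the log2 scale (edgeR adjusted p from 0.00492 for Hif1a to 0.0443 for Tomm20). Lyrm7, a chaperone of the Rieske protein of complex III, was at 2.79, 3.78, 2.23, 3.04 and 2.36 CPM in wild type saline and at 0.909, 0.798, 0.748, 0.956 and 0.957 CPM in knockout-labelled saline. It was at 1.48, 2.88, 1.71, 3.46 and 1.83 CPM in wild type HDM and at 1.17, 0.731, 0.486, 0.606 and 1.62 CPM in knockout-labelled HDM. The groups did not overlap under saline, and overlapped under HDM. Lyrm7 was lower by label, at -1.69 ± 0.30 under saline (edgeR adjusted p = 0.00349) and -1.30 ± 0.30 under HDM (adjusted p = 0.0117), and at -1.47 and -1.16 without the adipose-rich libraries (adjusted p = 0.00737 and 0.0189). Atpif1, the inhibitor that blocks ATP hydrolysis by complex V, was higher by 0.36 ± 0.08 and 0.29 ± 0.08 (adjusted p = 0.0436 and 0.0433), and was not called with 15 libraries (0.36 and 0.29; adjusted p = 0.174 and 0.134).

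The genes outside the members whose log2 CPM followed the mean of the 70 members that are not tissue-restricted most closely over the 20 libraries were Fh1 (fumarate hydratase), Dbi (an acyl-CoA binding protein) and Immt (a cristae protein). Pearson's r was 0.982, 0.981 and 0.979 over 20 libraries, and 0.937, 0.893 and 0.876 over the 15 without adipose-rich lungs. The points share library, depth scaling and the uneven content of fat and heart transcripts, so r is given as a description.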

How the data were processed

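RNA of 20 mouse lungs, 5 libraries in each of 4 groups, had been sequenced. The authors deposited 1 table of RSEM expected counts per gene symbol; per the submitters' processing notes, the tools included Bowtie2 2.1.0 and RSEM 1.2.15, and the build named is hg38, although the table holds mouse symbols, so no gene coordinates were taken from it. Expected counts were rounded to whole numbers; 12 of the 86 members had fractional counts in some library. Low counts were removed by filterByExpr on the groups, which kept 16193 genes; after TMM scaling these were tested with edgeR 4.0.16 (robust quasi-likelihood F test, Benjamini-Hochberg adjustment over all genes tested, 16 residual degrees of freedom, R 4.3.3) in 1 fit of the 4 groups with 5 contrasts; every adjusted p in the text comes from this test. CPM are edgeR's, on effective library sizes. Log2 CPM for likeness used a prior count of 2. Fold changes are given as log2 values with their standard errors. The labels call the libraries biological replicates; the p-values measure the spread between these libraries.

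Libraries with Adipoq of 50 CPM or more were left out in a second fit (15 libraries). Other alternatives were DESeq2 1.42.0, limma 3.58.1 (voom), other scalings and filters, the replicate number as a block, and leaving out each library; leaving out libraries with high Myh6 or with Adipoq of 20 CPM or more, and a Ucp1 covariate, were chosen after seeing the data. The fitting code was tested on simulated data. Alox15 was tested by an exact permutation test. Transcript lengths and coding sequences are GENCODE M21 (GRCm38), matched by symbol for 86 of 86 members and aligned with Biopython 1.88 under Python 3.11.15; promoters are RefSeq's on GRCm38.p6.

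Named members were, per comparison and complex, up to 3 called genes with the largest rise and fall, the highest and lowest level, the tissue-restricted forms with their partners, and up to 3 called genes per direction of each other list; the remaining called members in the text were added after their values were seen. The values of 1 named member are not reported here. The members and the gene lists were chosen with earlier results of these data known.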

Additional observations from a re-analysis of the deposited data

Results flagged for a closer look

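In 26 of 156 groups of 5 libraries checked, 1 library lay far from the other 4 by the size of its gap to the nearest of them; chance flags about 1 in 20 groups. Most were knockout-labelled HDM 5, the only adipose-rich library of its group. In it the summed level of all members was 7236 CPM, with 4244 to 4435 CPM in the other 4 libraries. Complex I summed there to 2127 CPM (1246 to 1327 in the others), complex III to 795 CPM (423 to 452), complex IV to 1511 CPM (866 to 919) and complex V to 2803 CPM (1676 to 1755). Single genes were high in that library. In complex V these were Atp5b at 814 CPM (378 to 428 in the others), Atp5g1 at 41.1 CPM (24.0 to 25.3), Atp5g3 at 131 CPM and Atp5l at 133 CPM. In complex IV they were Cox4i1 at 248 CPM, Cox6a2 at 31.5 CPM, Cox6b1 at 144 CPM, Cox7a1 at 41.2 CPM, Cox7a2 at 81.6 CPM, Cox7b at 113 CPM, Cox8a at 84.3 CPM and Cox8b at 46.9 CPM. In complex III they were Uqcr10 at 43.0 CPM and Uqcrc2 at 146 CPM. In complex I they were Ndufa1 at 44.4 CPM, Ndufa4 at 95.6 CPM and Ndufb6 at 34.9 CPM.

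The other 4 were in libraries that are not adipose-rich. Knockout-labelled saline 1 was low for Atp5f1, at 80.1 CPM (97.3 to 104 in the others), and for Atp5g3, at 51.6 CPM (65.1 to 68.7). Wild type saline 1 was low for Ndufaf3, at 8.63 CPM (11.2 to 11.4). Knockout-labelled HDM 4 was high for AA467197, at 64.1 CPM (40.5 to 42.5).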

How the results depend on the processing

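The number of members called with HDM in wild type, 6 with all 20 libraries, was 2 in a fit of only the compared libraries, 3 at an adjusted p under 0.01 and 12 with Ucp1 as a covariate. In knockout-labelled mice, 14 became 6 at an adjusted p under 0.01, 33 and 24 without libraries with Adipoq of 50 or of 20 CPM or more, and 27 with Ucp1 as a covariate. The cause was not tested. Leaving out 1 library gave 3 to 9 in wild type (lowest without wild type saline 3, highest without wild type saline 4) and 10 to 15 in knockout-labelled mice. For the label it gave 0 to 0 under saline and 0 to 1 under HDM, and for the interaction 0 to 0. DESeq2 called 7, 15, 0, 0 and 0 in these 5 comparisons and limma voom 6, 14, 0, 0 and 0. With the replicate block the counts were 7, 15, 0, 0 and 0; of 30 same-numbered pairs 17 had a correlation above 0.1 (from -0.457 to 0.506, median 0.122, against -0.086 for different numbers), and since not every pair did, the numbers were not taken as pairs. In knockout-labelled mice the HDM log2 fold change turned from positive to negative without libraries with Adipoq of 50 CPM or more for Cox6a2 (-0.98), Cox7a1 (-1.53), Cox8b (-2.85) and Uqcrc2 (-0.25), and without those of 20 CPM or more for Cox6a2 (-1.02) and Cox8b (-1.91). A turned sign was counted only for genes called in either of the fits compared. Of the other values, 5969 kept their side of the threshold, 85 lost the call and 30 gained it. Those 5969 include genes called in neither fit whose sign changed. The shallowest library held 12573113 counts, so genes near 1 CPM, such as Lyrm7, rest on few counts.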
